A study of Sus scrofa with 24 samples.

Results

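The inflammasome and interleukin 1 genes were followed in the back fat under the skin of 24 Iberian piglets, all male and of a fatty breed, whose mothers received different antioxidant levels in late gestation and lactation. The set was chosen by gene symbol and held 9 genes: the sensor NLRP3, the adaptor PYCARD, the protease CASP1, the ligands IL1A and IL18, the receptor antagonist IL1RN and the receptors IL1R1, IL1R2 and IL1RAP. Of these, 8 were matched to an Ensembl identifier among the 25880 genes of the count table and passed the filter on low counts in all 9 comparisons. IL1RN was not analysed here. The piglets fell into maternal diet groups of 6, every piglet being 33 days old and 5 days after weaning. VEHT sows received 100 mg of vitamin E and 1.5 mg of hydroxytyrosol, a phenol of olives, per kg of feed. VE sows received 100 mg/kg of vitamin E without hydroxytyrosol, HT sows 30 mg/kg of vitamin E with 1.5 mg/kg of hydroxytyrosol, and C (control) sows 30 mg/kg of vitamin E alone, so that all 4 diets contained some vitamin E. These are amounts added to the feed. Per the study, vitamin E analysed in the feed was above the added amount in every diet, and the diets lay closer together. The diets were those of the mothers, and bulk fat was sequenced, so that fewer cells of a type and less RNA per cell cannot be told apart.

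The inflammasome is a protein complex that assembles when a sensor such as NLRP3 detects danger signals. NLRP3 recruits the adaptor PYCARD, which in turn recruits CASP1, and active CASP1 cuts the precursors of interleukin 1 beta and interleukin 18 and opens the pore protein gasdermin D. Interleukin 1 alpha, the product of IL1A, binds IL1R1, which signals once the accessory chain IL1RAP joins it, while IL1R2 binds the same ligands without signalling and is therefore called a decoy. In fat, inflammasome genes are known mainly from macrophages, whereas IL1R1 is present on many stromal cell types.

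Library totals lay between 36614639 and 61919211 gene counts. As a check of the tissue, the 8 matched adipocyte markers (of 9 listed) summed to between 2318 and 25003 CPM (gene counts as a share of the library total, scaled by TMM factors). The libraries VEHT G141, C G041 and C G047 stood apart from the other 21. Their 15 matched macrophage markers (of 16 listed) summed to 11561.5 to 15166.6 CPM, against 353 to 3158 CPM in the other 21 libraries. Their 6 matched neutrophil markers (of 8) summed to 522 to 837 CPM against 3.39 to 125 CPM, and their adipocyte markers to 2318 to 2477 CPM against 5797 to 25003 CPM. Other immune lists were higher in them too, with plasma cell markers at 545 to 1010 CPM against 3.41 to 147 CPM, T cell markers at 232 to 298 CPM against 2.73 to 72.5 CPM and dendritic cell markers at 238 to 358 CPM against 27.9 to 83.0 CPM. B cell markers summed to 18.6 to 30.1 CPM against 5.30 to 12.7 CPM, and the 2 matched lymph node stroma markers (of 5) to 176 to 634 CPM against 26.9 to 129 CPM. Endothelial markers were lower, at 301 to 483 CPM against 736 to 2209 CPM, while stromal and keratinocyte sums lay within the range of the other 21. Muscle markers varied from 1.75 to 38880 CPM over the other 21 libraries. Comparisons that held VEHT G141, C G041 or C G047 were therefore also fitted without them. Not every value without these 3 libraries is printed, and most levels and ratios by diet are over all libraries. The 3 had been recognised in an earlier analysis of the same data.

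Of the matched genes, 7 had a RefSeq entry on Sscrofa11.1, the build used for the counts. NLRP3 lies on chromosome 2, IL1A, IL1R1 and IL1R2 on chromosome 3, CASP1 and IL18 on chromosome 9 and IL1RAP on chromosome 13. IL1R1 and IL1R2 are neighbours on the reverse strand, at 52192912 to 52334734 and 52367434 to 52406393. The 300 bases from 250 before to 50 after the RefSeq gene start are printed for 4 genes that were high together in the 3 libraries and, for contrast, for IL1R1, which was not. IL1A was also high in the 3 libraries, but its window held no match to any motif searched and is not printed. Capitals mark matches, on either strand, to any of the motifs searched, which were the AP-1 site TGANTCA, the PU.1 core GAGGAA, the C/EBP site TTGCNNAA, the TATA box TATAAA and the NF-kB consensus.
NLRP3 (chr2:56977363-56977662, reverse strand): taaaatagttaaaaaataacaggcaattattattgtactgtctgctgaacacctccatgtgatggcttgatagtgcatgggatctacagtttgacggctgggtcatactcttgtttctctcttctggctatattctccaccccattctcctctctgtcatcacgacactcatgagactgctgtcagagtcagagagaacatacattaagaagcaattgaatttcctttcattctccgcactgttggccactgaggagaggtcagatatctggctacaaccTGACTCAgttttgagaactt
CASP1 (chr9:35199315-35199614, reverse strand): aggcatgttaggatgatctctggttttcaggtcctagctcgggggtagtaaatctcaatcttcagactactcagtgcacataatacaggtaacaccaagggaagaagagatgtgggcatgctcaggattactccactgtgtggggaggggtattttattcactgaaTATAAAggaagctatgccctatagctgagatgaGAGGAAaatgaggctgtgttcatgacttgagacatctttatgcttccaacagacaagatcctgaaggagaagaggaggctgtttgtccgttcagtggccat
IL18 (chr9:39861209-39861508, reverse strand): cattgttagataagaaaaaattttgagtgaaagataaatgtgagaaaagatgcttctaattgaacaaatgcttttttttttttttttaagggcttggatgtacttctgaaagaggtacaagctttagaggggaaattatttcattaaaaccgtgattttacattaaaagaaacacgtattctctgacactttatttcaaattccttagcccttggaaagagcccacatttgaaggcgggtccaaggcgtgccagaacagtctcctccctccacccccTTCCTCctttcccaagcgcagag
IL1R2 (chr3:52406344-52406643, reverse strand): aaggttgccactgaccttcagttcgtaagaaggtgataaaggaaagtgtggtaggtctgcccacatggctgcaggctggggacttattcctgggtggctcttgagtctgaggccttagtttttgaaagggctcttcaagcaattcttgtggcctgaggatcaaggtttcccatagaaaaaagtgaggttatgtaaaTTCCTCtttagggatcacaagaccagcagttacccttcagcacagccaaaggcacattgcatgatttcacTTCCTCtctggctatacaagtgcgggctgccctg
IL1R1 (chr3:52334685-52334984, reverse strand): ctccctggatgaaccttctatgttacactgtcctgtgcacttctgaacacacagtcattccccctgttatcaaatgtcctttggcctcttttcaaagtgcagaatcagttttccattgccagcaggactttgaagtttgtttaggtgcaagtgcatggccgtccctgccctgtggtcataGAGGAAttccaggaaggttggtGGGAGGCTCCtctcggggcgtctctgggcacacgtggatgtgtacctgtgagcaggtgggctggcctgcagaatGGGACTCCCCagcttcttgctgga
The PU.1 core was found in 4 of the 7 windows (CASP1, IL18, IL1R1 and IL1R2) and in 25.9% of 19547 protein-coding gene windows of the same length. The AP-1 site was found in 2 windows (NLRP3 and IL1RAP) against 6.07% of all windows, and reads the same on both strands. The NF-kB consensus was found in 1 window, that of IL1R1, against 16.4% of all windows, and the TATA box in 1, that of CASP1, against 10.9%. No window held the C/EBP site, which 9.44% of all windows held. Matches to different motifs did not overlap each other. A match is a run of letters and not a tested binding site.

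The members were expressed at very different levels. Per kb of RefSeq exon, the median over 24 libraries was 11.7 CPM per kb for IL1R1, 4.04 for CASP1, 2.13 for IL18, 1.96 for IL1RAP, 0.725 for IL1R2, 0.667 for NLRP3 and 0.147 for IL1A. The ranges over libraries overlapped between every pair of neighbours in this order. IL1R1 alone had a narrow range, 9.08 to 17.3 CPM per kb, while CASP1 ranged from 1.11 to 98.7 and IL1A from 0.0168 to 7.17 CPM per kb. PYCARD had no exon length and was left out of this order.

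NLRP3, the sensor, had a lowest, median and highest level of 2.50, 5.77 and 53.4 CPM in VEHT, 1.18, 3.43 and 8.40 CPM in VE, 0.836, 2.95 and 3.41 CPM in HT and 0.852, 3.39 and 89.2 CPM in C. The highest VEHT value belonged to G141, and G041 (54.8 CPM) and G047 (89.2 CPM) were the high libraries of C, so that the 4 groups overlapped and differed mainly in their upper ends. Without the 3 libraries NLRP3 averaged 5.28 CPM in VEHT (n = 5), 3.86 CPM in VE (n = 6), 2.52 CPM in HT (n = 6) and 2.51 CPM in C (n = 4).

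CASP1, the protease, had a lowest, median and highest level of 1.56, 10.6 and 104 CPM in VEHT, 2.34, 2.91 and 7.50 CPM in VE, 1.58, 5.50 and 9.40 CPM in HT and 1.34, 4.17 and 119 CPM in C. The same 3 libraries held 85.4 to 119 CPM, and no other library exceeded 14.0 CPM, the value of VEHT G162. In HT the libraries fell into 3 low ones (1.58 to 2.63 CPM) and 3 higher ones (8.36 to 9.40 CPM).

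PYCARD, the adaptor, had a lowest, median and highest level of 1.09, 5.10 and 20.4 CPM in VEHT, 1.15, 3.32 and 8.17 CPM in VE, 1.03, 1.51 and 4.59 CPM in HT and 1.61, 3.93 and 48.3 CPM in C. Its highest library was C G041 (48.3 CPM), whereas that of NLRP3 and CASP1 was C G047. The groups overlapped here too, and HT had the lowest median.

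IL1A, an interleukin that is active without cleavage by CASP1, was the lowest member, with a lowest, median and highest level of 0.286, 0.484 and 7.59 CPM in VEHT, 0.0761, 0.559 and 0.719 CPM in VE, 0.0665, 0.388 and 1.61 CPM in HT and 0.151, 0.911 and 28.4 CPM in C. C G047 (28.4 CPM) and C G041 (13.7 CPM) led, followed by VEHT G141 and by VEHT G208 with 4.18 CPM. VEHT G208 was not among the 3 libraries that stood apart, but had the highest summed macrophage markers of the other 21 (3158 CPM).

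IL18, a ligand that CASP1 activates, had a lowest, median and highest level of 1.09, 2.47 and 31.7 CPM in VEHT, 0.983, 1.70 and 5.61 CPM in VE, 1.02, 1.58 and 2.53 CPM in HT and 0.374, 2.66 and 40.6 CPM in C. The 3 libraries held 28.9 to 40.6 CPM, and VE G127 followed with 5.61 CPM. The 2 lowest libraries of the series, C G025 (0.374 CPM) and C G206 (0.562 CPM), were also of the C diet, which therefore spanned the whole range.

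IL1R1, the signalling receptor, had a lowest, median and highest level of 55.6, 69.1 and 104 CPM in VEHT, 60.7, 70.6 and 77.6 CPM in VE, 56.4, 72.4 and 87.2 CPM in HT and 54.7, 65.9 and 84.1 CPM in C. It averaged 73.2 ± 16.9 CPM in VEHT, 70.6 ± 6.04 CPM in VE, 72.8 ± 11.6 CPM in HT and 68.3 ± 12.4 CPM in C (SD, n = 6 each). The 3 libraries held 54.7 to 67.5 CPM and lay within or just below the range of the other 21 (55.6 to 104 CPM).

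IL1R2, the decoy receptor, had a lowest, median and highest level of 0.989, 1.70 and 35.7 CPM in VEHT, 0.609, 1.77 and 4.52 CPM in VE, 0.669, 1.41 and 2.75 CPM in HT and 0.499, 3.07 and 24.9 CPM in C. VEHT G141 was its highest library, and VEHT G208 followed the 3 libraries with 11.5 CPM. The HT libraries had the narrowest range, and all groups overlapped.

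IL1RAP, the accessory chain, had a lowest, median and highest level of 11.6, 17.5 and 37.3 CPM in VEHT, 12.8, 16.4 and 21.7 CPM in VE, 15.2, 21.7 and 51.1 CPM in HT and 11.2, 19.8 and 84.7 CPM in C. Its order differed from that of the other members: C G047 was highest, but HT G008 (51.1 CPM) came next, above VEHT G141 (37.3 CPM) and C G041 (31.2 CPM).

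**Figure D1:**
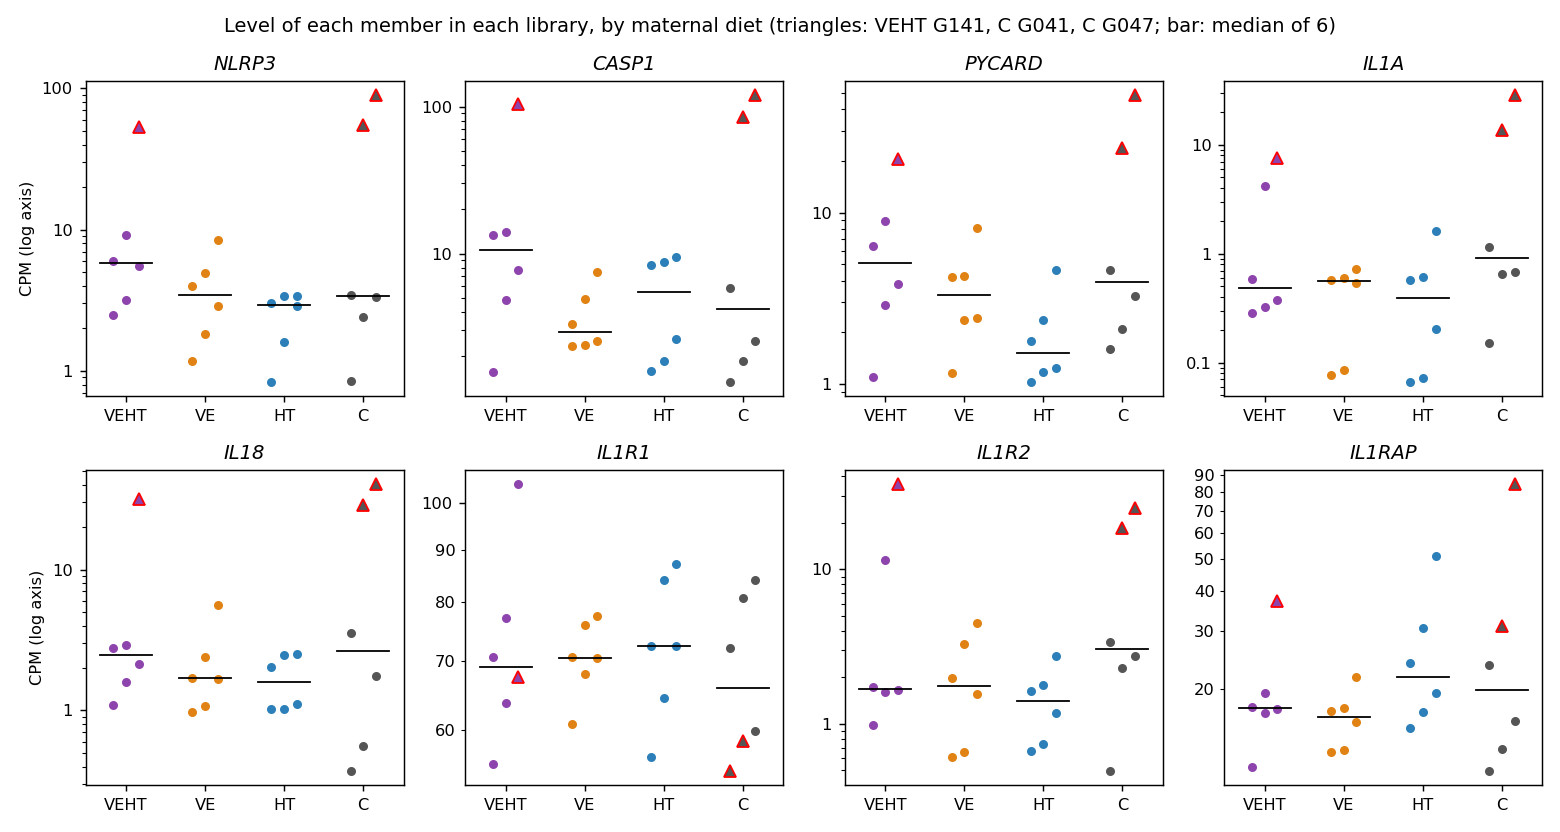
Level of the 8 members in each library (CPM on a log axis) by maternal diet, with the median of 6 as a bar and VEHT G141, C G041 and C G047 as red-edged triangles. The triangles lie above all circles for NLRP3, CASP1, PYCARD, IL1A, IL18 and IL1R2, among or below the circles for IL1R1, and for IL1RAP on either side of HT G008 (51.1 CPM).

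In 6 of the 8 members (NLRP3, CASP1, PYCARD, IL1A, IL18 and IL1R2) all 3 libraries lay above all 21 others, which was the case for 13.8% of all genes. These 3 libraries supplied 72.5% of the summed CPM of NLRP3, 74.0% of CASP1, 57.1% of PYCARD, 77.9% of IL1A, 71.4% of IL18 and 62.4% of IL1R2. They supplied 27.6% for IL1RAP and 10.6% for IL1R1. The SD of log2 CPM over libraries fell for NLRP3 to 0.93 over 21 libraries, against 1.73 over all 24, and for CASP1 to 1.08 against 1.88. IL1R1 had an SD of 0.22 over 21 libraries and of 0.23 over 24.

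The effect of vitamin E without hydroxytyrosol was read from VE vs C. In VE vs C, 7 of 8 members had a negative log2 fold change, and none was called, as was true of all genes (0% of 17532, edgeR quasi-likelihood test, Benjamini-Hochberg adjusted p of at most 0.10 and at least 1.5-fold). IL1A differed by a log2 fold change of -4.09 ± 1.24 (SE), CASP1 by -3.23 ± 1.12 and NLRP3 by -2.72 ± 1.07. IL18 differed by -2.48 ± 1.07, IL1R2 by -2.05 ± 0.87, PYCARD by -1.88 ± 0.85, IL1RAP by -0.88 ± 0.44 and IL1R1 by 0.05 ± 0.14. At an unadjusted p under 0.05, 6 of 8 members were lower in VE, against 8.77% of all genes, and none was higher, against 3.34%. The smallest edgeR adjusted p of a member was 0.310. DESeq2 called NLRP3, CASP1 and IL1A lower in VE (3 of 8, against 4.07% of all genes lower and 0.941% higher), whereas limma voom with quality weights called no member. Without C G041 and C G047 the log2 fold change was 0.62 ± 0.56 for NLRP3, 0.41 ± 0.48 for CASP1, 0.38 ± 0.51 for PYCARD, -0.60 ± 0.71 for IL1A, 0.52 ± 0.69 for IL18 and -0.09 ± 0.65 for IL1R2, and no member had an unadjusted p under 0.05, against 4.33% of all genes lower and 3.22% higher. No member had separate groups, against 0.325% of genes with all VE libraries above all C libraries and 0.291% with all below. The ratio of the diet medians with all libraries was close to 0 on the log2 scale for NLRP3 (0.02) and -0.70 for IL1A.

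Hydroxytyrosol at the basal vitamin E level (30 mg/kg added) was read from HT vs C, in which the C libraries were the same as above. Again 7 of 8 members had a negative log2 fold change and none was called by edgeR (0% of 17468 genes). The values were -3.82 ± 1.30 for IL1A, -3.36 ± 1.07 for NLRP3, -2.91 ± 1.04 for IL18, -2.78 ± 0.86 for PYCARD, -2.75 ± 1.14 for CASP1 and -2.59 ± 0.82 for IL1R2. IL1RAP differed by -0.21 ± 0.50 and IL1R1 by 0.07 ± 0.16. At an unadjusted p under 0.05, 6 of 8 members were lower in HT, against 10% of all genes, and none higher, against 2.52%, with a smallest edgeR adjusted p of 0.335. DESeq2 called 5 of 8 members lower in HT, against 3.87% of all genes lower and 0.366% higher (NLRP3, PYCARD, IL1A, IL18 and IL1R2), and limma voom none. Without C G041 and C G047 the log2 fold change was -0.0012 ± 0.48 for NLRP3, 0.91 ± 0.63 for CASP1, -0.52 ± 0.49 for PYCARD, -0.31 ± 0.86 for IL1A, 0.11 ± 0.60 for IL18 and -0.63 ± 0.54 for IL1R2. IL1RAP then differed by 0.71 ± 0.35 (edgeR, unadjusted p = 0.0708), and no member reached an unadjusted p under 0.05, against 3.51% of all genes lower and 1.31% higher. No member had separate groups, against 0.12% of genes with all HT libraries above all C libraries and 0.195% with all below.

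The combined diet was compared with control in VEHT vs C. No member was called (0% of 17607 genes), none had an unadjusted p under 0.05 (0.738% of all genes higher, 1.36% lower), and DESeq2 (0.00568% higher) and limma voom called none. Log2 fold changes lay between -1.71 ± 1.28 for IL1A and 0.10 ± 0.18 for IL1R1. Each of these groups held at least 1 of the libraries that stood apart. Without all 3, CASP1 had a log2 fold change of 1.51 ± 0.64 and NLRP3 of 1.05 ± 0.49, with edgeR adjusted p of 0.937 for both and unadjusted p of 0.0415 and 0.0589. Thus 1 of 8 members had an unadjusted p under 0.05 and was higher in VEHT, against 1.95% of all genes, and none was lower, against 3.08%. The groups overlapped for all members, against 0.0511% of genes with all VEHT libraries above all C libraries and 0.0454% with all below.

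Hydroxytyrosol on top of vitamin E was read from VEHT vs VE, where all 8 members had a positive log2 fold change and none was called by edgeR (0% of 17525 genes). At an unadjusted p under 0.05, 4 of 8 were higher in VEHT, against 5.87% of all genes, and none was lower, against 3.17%. These were CASP1 (2.70 ± 0.87), IL1A (2.38 ± 0.96), IL1R2 (2.10 ± 0.94) and NLRP3 (1.82 ± 0.79), the smallest edgeR adjusted p being 0.440. DESeq2 called CASP1 (1 of 8, against 1.16% of all genes higher and 0.291% lower) and limma voom none. Without VEHT G141, CASP1 had a log2 fold change of 1.12 ± 0.52 (edgeR, unadjusted p = 0.0514), IL1A of 1.42 ± 0.85, IL1R2 of 0.75 ± 0.73, NLRP3 of 0.46 ± 0.50 and IL18 of -0.09 ± 0.47. No member then had an unadjusted p under 0.05, against 3.75% of all genes higher and 3.25% lower. The groups overlapped for every member, against 0.114% of genes with all VEHT libraries above all VE libraries and 0.2% with all below.

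Vitamin E on top of hydroxytyrosol was read from VEHT vs HT. No member was called by edgeR (0% of 17469 genes), and 5 of 8 were higher in VEHT at an unadjusted p under 0.05, against 6.33% of all genes, and none was lower, against 1.56%. They were IL1R2 (2.60 ± 0.90), NLRP3 (2.41 ± 0.75), CASP1 (2.17 ± 0.90), IL18 (2.06 ± 0.81) and PYCARD (1.84 ± 0.64), with a smallest edgeR adjusted p of 0.583. DESeq2 called NLRP3 (1 of 8, against 0.635% of all genes higher and 0.0458% lower), gave no adjusted p for IL18, and limma voom called none. Without VEHT G141, NLRP3 had a log2 fold change of 1.06 ± 0.42 and PYCARD of 1.19 ± 0.54, with unadjusted p of 0.027 and 0.0479 (edgeR), so that 2 of 8 members were higher against 2.96% of all genes. IL1RAP, with -0.66 ± 0.30, was lower in VEHT at an unadjusted p of 0.0447 (edgeR), against 1.24% of all genes, and the adjusted p of these 3 genes was 0.999. The groups overlapped for every member, against 0.0572% of genes with all VEHT libraries above all HT libraries and 0.0458% with all below.

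VE vs HT held none of the 3 libraries. No member was called (0% of 17397 genes) by edgeR, DESeq2 (0.391% of all genes higher, 0.207% lower) or limma voom. IL1RAP differed by a log2 fold change of -0.68 ± 0.28 (edgeR, unadjusted p = 0.0277, adjusted p = 0.503) and was the only member with an unadjusted p under 0.05, against 4.61% of all genes that were lower in VE and 4.91% that were higher. Its levels overlapped, with 12.8 to 21.7 CPM in VE and 15.2 to 51.1 CPM in HT. Without HT G008 the IL1RAP value was -0.39. No member had separate groups, against 0.259% of genes with all VE libraries above all HT libraries and 0.247% with all below. The other members lay between -0.50 ± 0.50 for CASP1 and 0.89 ± 0.49 for PYCARD.

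**Figure D2:**
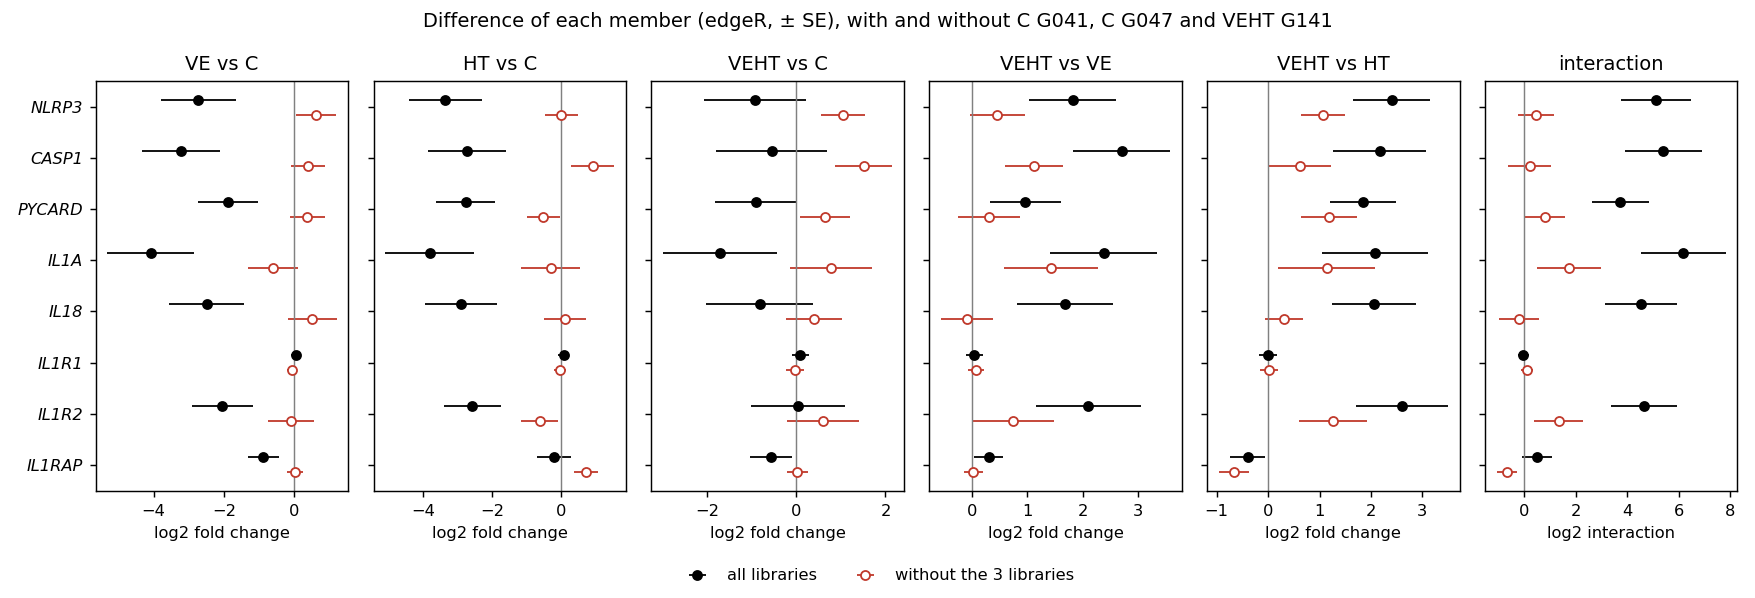
Log2 fold change of each member (horizontal axis, edgeR estimate ± SE) in 5 pairs of diets and log2 interaction in the right panel, with all libraries (black) and without VEHT G141, C G041 and C G047 (open red). For NLRP3 in VE vs C the value was -2.72 with all libraries and 0.62 without, and in the interaction 5.13 with and 0.44 without, whereas IL1R1 stayed near 0 in every panel.

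The factorial model asked whether each antioxidant acted differently in the presence of the other. Neither the vitamin E nor the hydroxytyrosol main effect called any member by edgeR, DESeq2 or limma voom (0% of 17602 genes by edgeR in each). IL1RAP had the only unadjusted p under 0.05, 0.0398 for the vitamin E main effect (edgeR, log2 fold change -0.63 ± 0.29), against 2.27% of all genes that were lower and 1.66% that were higher. For the hydroxytyrosol main effect no member had one, against 2.84% of all genes higher and 3.38% lower. DESeq2 called 0.0398% of genes higher and 0.0284% lower for vitamin E, and 0.0227% higher and 0.017% lower for hydroxytyrosol. Without the 3 libraries, NLRP3 was higher with vitamin E by 0.84 ± 0.36 (edgeR, unadjusted p = 0.0294, adjusted p = 0.664), against 3.39% of all genes higher and 4.13% lower. CASP1 was then higher with hydroxytyrosol by 1.02 ± 0.42 (edgeR, unadjusted p = 0.0268, adjusted p = 0.575), against 4.64% of all genes higher and 3.62% lower, and no other member had an unadjusted p under 0.05. The interaction, in contrast, was called for 6 of 8 members by edgeR, against 3.95% of all genes (3.68% with a positive value), and for the same 6 by DESeq2, against 6.37% of genes with a positive and 0.761% with a negative value, while limma voom with quality weights called none. It is positive where the vitamin E effect is higher with hydroxytyrosol than without, and was 6.18 ± 1.66 for IL1A (edgeR adjusted p = 0.0654), 5.39 ± 1.50 for CASP1 (0.0697), 5.13 ± 1.36 for NLRP3 (0.0636), 4.65 ± 1.30 for IL1R2 (0.0707), 4.53 ± 1.40 for IL18 (0.0963) and 3.72 ± 1.10 for PYCARD (0.0845). IL1R1 (-0.04 ± 0.21) and IL1RAP (0.49 ± 0.58) did not pass. At an unadjusted p under 0.05 the same 6 were positive, against 11.5% of all genes, and none was negative, against 3.32%.

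Without VEHT G141, C G041 and C G047 together, no member was called, and none had an unadjusted p under 0.05, against 2.08% of all genes with a positive and 1.68% with a negative value. The values were then 1.72 ± 1.25 for IL1A, 0.21 ± 0.83 for CASP1, 0.44 ± 0.71 for NLRP3, 1.34 ± 0.95 for IL1R2, -0.21 ± 0.78 for IL18 and 0.80 ± 0.76 for PYCARD. Leaving out C G041, C G047 or VEHT G141 alone also removed all 6 calls, as did leaving out HT G012, HT G066, VE G077 or VE G220. With 1 library left out at a time the values themselves stayed positive for these 6, the lowest being 4.99 for IL1A, 3.84 for CASP1, 3.78 for NLRP3, 3.28 for IL1R2, 2.78 for IL18 and 2.74 for PYCARD. From the medians of the 4 diets over all libraries, the same contrast was 0.95 for NLRP3, 1.46 for CASP1, 2.00 for PYCARD, 1.02 for IL1A, 1.29 for IL18 and 1.06 for IL1R2 on the log2 scale, a description with no test.

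Correlations with cell markers are given as a description over 24 libraries of the same tissue, whose marker sums differed widely. With the mean log2 CPM of the macrophage markers, the correlation of log2 CPM was 0.97 for NLRP3, 0.95 for PYCARD, 0.87 for CASP1, 0.87 for IL18, 0.84 for IL1R2, 0.78 for IL1A, 0.39 for IL1RAP and -0.38 for IL1R1. Over the other 21 libraries it was 0.92 for NLRP3, 0.90 for PYCARD, 0.55 for CASP1, 0.52 for IL18, 0.54 for IL1R2, 0.38 for IL1A, -0.47 for IL1RAP and -0.11 for IL1R1. For some members another list lay closer than the macrophage list. CASP1 had 0.96 over 24 and 0.91 over 21 libraries with the T cell markers, IL1A 0.91 and 0.78 with the neutrophil markers and IL1R2 0.85 and 0.57 with the neutrophil markers. IL18 had 0.50 and 0.58 with the stromal markers and -0.89 and -0.67 with the endothelial markers, and over the 21 libraries its correlation with T cell markers was 0.06 and with plasma cell markers -0.0073. IL1RAP had 0.67 and 0.29 with the plasma cell markers and 0.62 and 0.16 with the neutrophil markers. With the stromal markers it had -0.24 and -0.60, and with the endothelial markers -0.42 and 0.44. The part of these cell types in the differences between diets was not tested.

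**Figure D3:**
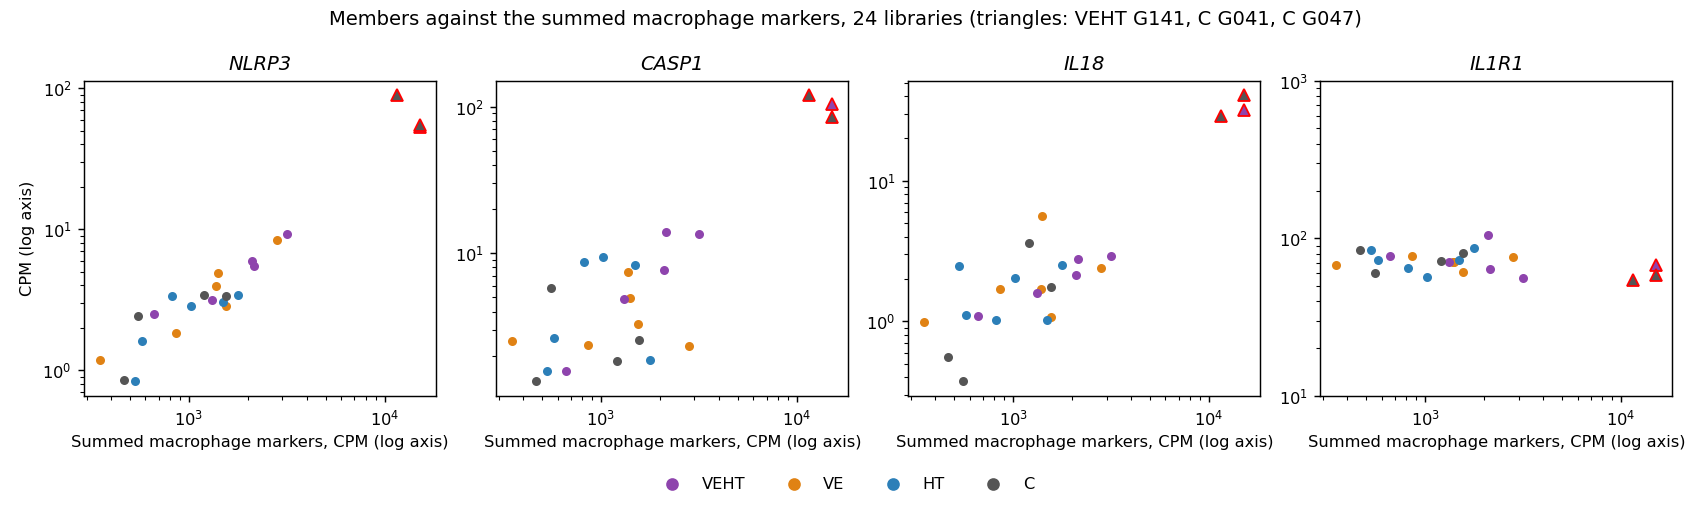
CPM of NLRP3, CASP1, IL18 and IL1R1 (vertical log axis) against the summed CPM of 15 macrophage markers (horizontal log axis) in 24 libraries, coloured by diet, with VEHT G141, C G041 and C G047 as triangles. NLRP3 climbs along the whole axis, CASP1 and IL18 scatter among the circles, and IL1R1 is flat. Over the 21 circles, the correlation of log2 CPM with the mean log2 CPM of these markers, not their sum, was 0.92, 0.55, 0.52 and -0.11 in that order.

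The 3 genes most alike to each member over 24 libraries were sought among 13696 named genes. NLRP3 was closest to SPI1, which encodes the myeloid transcription factor PU.1 and is itself in the macrophage list, and to DOCK2 and LAT2 (r of 0.98 each, and 0.95, 0.93 and 0.95 over 21 libraries). CASP1 was closest to the lymphocyte surface genes CD244, SLAMF7 and CD38 (0.98 each), and PYCARD to the kinase gene BTK, the NADPH oxidase subunit gene NCF4 and RGS14 (0.95 each). IL1A was closest to ARG1, S100A8 and POU2AF1 (0.90, 0.90 and 0.89), and IL1R2 to S100A12, CD14 and ACTB (0.93 each). S100A8 and S100A12 are in the neutrophil list and CD14 is in the macrophage list. IL18 was closest to VRK2, PRDX1 and AP3B1 (0.94, 0.93 and 0.93), IL1RAP to NPEPPS, CTDP1 and SETD3 (0.84, 0.81 and 0.81) and IL1R1 to CCDC106, ARL10 and CACNB3 (0.77, 0.74 and 0.71). Over 21 libraries the same correlations were 0.94 to 0.96 for CASP1, 0.88 to 0.93 for PYCARD and 0.79 to 0.83 for IL1R2. They were 0.73 to 0.75 for IL1A, 0.67 to 0.75 for IL18, 0.61 to 0.75 for IL1RAP and 0.68 to 0.74 for IL1R1.

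Among themselves, NLRP3 and PYCARD varied together most closely, with a correlation of 0.92 over 24 and 0.80 over 21 libraries. NLRP3 and CASP1 had 0.89 and 0.59, and IL1A and IL1R2, which lie on the same chromosome far apart, had 0.86 and 0.68. IL1A and IL18 had 0.68 over 24 libraries and 0.04 over 21. These are descriptions, and the 3 libraries carried much of the correlation over 24.

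Ratios within a library do not depend on its depth, but they are ratios of counts and were not corrected for exon length. RefSeq exons span 2437 bases for IL1R2 and 6023 for IL1R1. Per kb of exon, the median over the 3 libraries was 10.23 CPM per kb for IL1R2 and 9.706 for IL1R1. Over the other 21 libraries it was 0.6787 CPM per kb for IL1R2 and 11.96 for IL1R1. The ratios below therefore compare libraries and do not show which of 2 genes had more transcripts. The decoy to signalling receptor ratio, IL1R2 over IL1R1, was 0.318 to 0.529 in the 3 libraries against 0.0081 to 0.207 in the other 21 (median 0.0248). By diet its median was 0.0250 in VEHT, 0.0232 in VE, 0.0185 in HT and 0.0407 in C, and the groups overlapped. IL1R1 over IL1RAP was 0.646 to 1.87 in the 3 libraries against 1.42 to 7.17 in the other 21 (median 4.03), and its diet medians were 3.92 in VEHT, 4.50 in VE, 3.62 in HT and 3.65 in C. CASP1 over PYCARD was 1.77 to 5.07 in the 3 libraries, within the 0.288 to 7.30 of the other 21, with diet medians of 1.59 in VEHT, 1.06 in VE, 1.97 in HT and 1.30 in C. The protease to adaptor ratio thus did not set the 3 libraries apart, whereas the decoy to receptor ratio did.

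**Figure D4:**
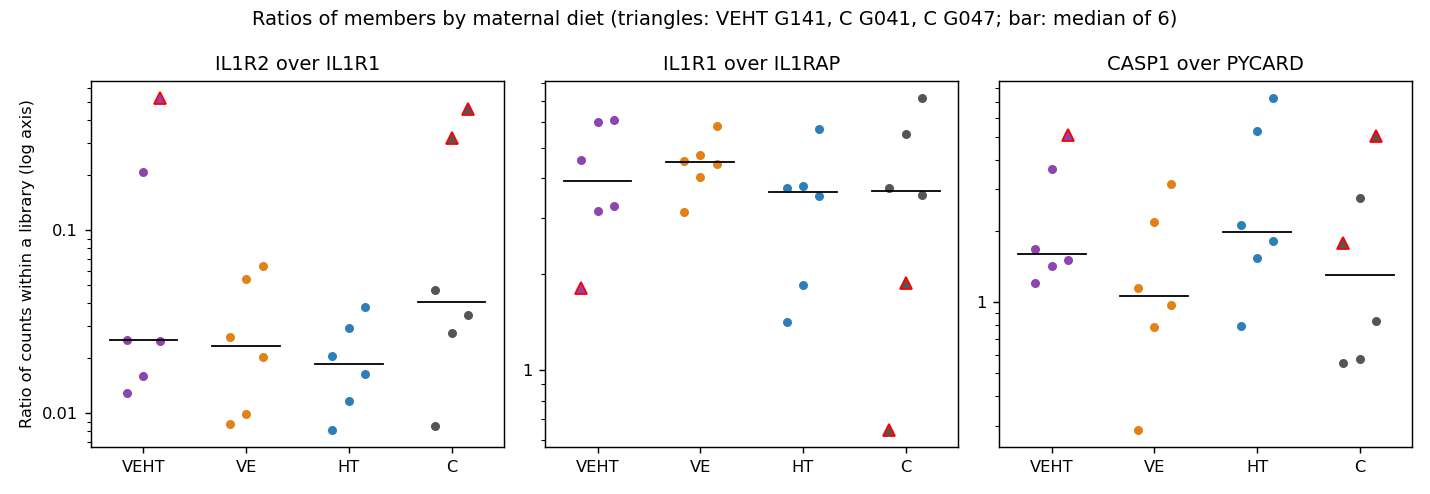
Ratio of counts within a library (log axis), not corrected for exon length, for IL1R2 over IL1R1, IL1R1 over IL1RAP and CASP1 over PYCARD by diet. The median of 6 is a bar, and VEHT G141, C G041 and C G047 are triangles. For IL1R2 over IL1R1 the 3 triangles (0.318 to 0.529) lie above all circles, and for CASP1 over PYCARD they lie among them.

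Of the other sensors and partners of inflammasomes, 11 of 17 listed genes were matched and tested. The interaction was called for 3 of the 11 by edgeR, against 3.95% of all genes. NLRP12, a sensor of myeloid cells, had 10.05 ± 2.28 (edgeR adjusted p = 0.0388), PANX1, a channel that releases ATP, had 3.75 ± 1.12 (0.0874) and CTSB, a lysosomal protease, had 3.01 ± 0.90 (0.0874). NOD2, a sensor of bacterial cell wall fragments, had 3.17 ± 1.04 (0.124) and was called by DESeq2 alone. NLRP12 reached 51.4 CPM or more in the 3 libraries and at most 8.35 CPM elsewhere. Without them the interaction was 1.85 ± 1.30 for NLRP12, 0.31 ± 0.57 for PANX1 and 0.39 ± 0.40 for CTSB, and none of the 11 had an unadjusted p under 0.05, against 2.08% of all genes with a positive and 1.68% with a negative value. NEK7, the kinase that binds NLRP3, had an interaction of -0.24 ± 0.23. The median interaction of the list was 2.15, against 0.02 over all genes, and 0.31 against -0.0069 without the 3 libraries.

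None of the 4 matched effector genes (of 7) was called in any comparison, and GSDMD, the pore protein cut by CASP1, had an interaction of 1.20 ± 0.62 (edgeR adjusted p = 0.379). GSDMD was 49.3 to 63.7 CPM in VE, against 45.0 to 216 CPM in C, with a log2 fold change of -0.93 ± 0.41 in VE vs C (edgeR, unadjusted p = 0.043, adjusted p = 0.400) and of 0.07 ± 0.11 without C G041 and C G047. IL33, the only matched gene of 8 other ligands, is an alarmin of stromal cells and had an interaction of 0.04 ± 0.42.

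Of the other receptors and binding proteins, 6 of 7 were matched and IL1RAPL1 was at 0 in all 24 libraries. The interaction was called by edgeR for 2 of the 5 tested, against 3.95% of all genes. They were IL18RAP, the accessory chain of the interleukin 18 receptor, at 6.25 ± 1.80 (edgeR adjusted p = 0.0763), and IL1RL2, the receptor of interleukin 36, at 5.58 ± 1.37 (0.0505). Without the 3 libraries IL18RAP had -0.26 and IL1RL2 2.87 ± 1.20 (edgeR, unadjusted p = 0.0265, adjusted p = 0.995), the only 1 of the 5 with an unadjusted p under 0.05, against 2.08% of all genes. IL1RL2 was low throughout, at most 2.04 CPM, and IL18RAP was at most 0.544 CPM outside the 3 libraries. In VEHT vs VE without VEHT G141, the log2 fold change was 2.73 ± 0.91 for IL1RL2 and 1.54 ± 0.61 for IL18RAP. Their unadjusted p was 0.0115 and 0.0277, and their adjusted p 0.711 (edgeR). Thus 2 of the 5 were higher at an unadjusted p under 0.05, against 3.75% of all genes, and none lower, against 3.25%. DESeq2 called both with all libraries, against 1.16% of all genes higher. IL18R1 (0.63 ± 0.77) and SIGIRR (0.39 ± 0.30) were not called in the interaction. In VE vs C, SIGIRR had -0.44 ± 0.16 (edgeR, unadjusted p = 0.0170, adjusted p = 0.318). Without C G041 and C G047 it had -0.39 ± 0.17 (edgeR, unadjusted p = 0.0377, adjusted p = 0.622). It was then the only 1 of the 5 lower at an unadjusted p under 0.05, against 4.33% of all genes. None was higher, against 3.22%.

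None of the 12 receptor signalling genes, all matched, was called by edgeR in any comparison. MYD88, the adaptor of the receptors, had an interaction of 1.67 ± 0.63 (edgeR adjusted p = 0.194), IRAK3, an inhibitor of the same step and called by DESeq2, 1.93 ± 0.73 (0.195) and IRAK2 1.36 ± 0.62 (0.307). TRAF6, TAB1 and TAB2 lay between -0.29 and 0.02. DESeq2 called IRAK2 and IRAK3 lower in VE vs C, with edgeR log2 fold changes of -1.07 ± 0.33 and -1.45 ± 0.50. Without C G041 and C G047 the values were smaller, -0.44 ± 0.20 for IRAK2 (edgeR, unadjusted p = 0.0474) and -0.97 ± 0.46 for IRAK3 (0.0592), so that 1 of the 12 genes was lower at an unadjusted p under 0.05, against 4.33% of all genes.

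Genes known to respond to interleukin 1 were matched for 11 of 12, and 3 of the 11 were called in the interaction by edgeR, against 3.95% of all genes. CXCL8, the neutrophil chemokine, had 10.23 ± 2.22 (edgeR adjusted p = 0.0362), CCL2, the monocyte chemokine, 4.75 ± 1.36 (0.0751) and SOCS3, a feedback inhibitor of cytokine signalling, 3.91 ± 1.06 (0.0659). CXCL8 was at least 104 CPM in the 3 libraries and at most 14.2 CPM elsewhere. Without the 3 libraries CXCL8 had 2.68 ± 1.27 (edgeR, unadjusted p = 0.0474, adjusted p = 0.995), CCL2 0.63 and SOCS3 0.67 ± 0.46, so that 1 of the 11 had an unadjusted p under 0.05, against 2.08% of all genes with a positive value. ICAM1, an adhesion molecule, had an interaction of 2.49 ± 0.83 (edgeR adjusted p = 0.129), which DESeq2 called. In VE vs C it had -1.78 ± 0.48 (edgeR, unadjusted p = 0.00277, adjusted p = 0.310), and -0.62 without the 2 C libraries (edgeR, unadjusted p = 0.00279, adjusted p = 0.458). It was then the only 1 of the 11 lower at an unadjusted p under 0.05, against 4.33% of all genes. With all libraries, its highest VE level (49.97 CPM) lay just below its lowest C level (50.02 CPM). All VE libraries lay below all C libraries in 0.291% of genes. IL6 (1.62 ± 0.89) and NFKBIA (0.61 ± 0.41) were not called in the interaction. In VEHT vs VE, 6 of the 11 were higher at an unadjusted p under 0.05 (edgeR), against 5.87% of all genes. None was lower, against 3.17%. Without VEHT G141, 3 of the 11 were higher, against 3.75% of all genes, and none lower, against 3.25%.

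**Figure D5:**
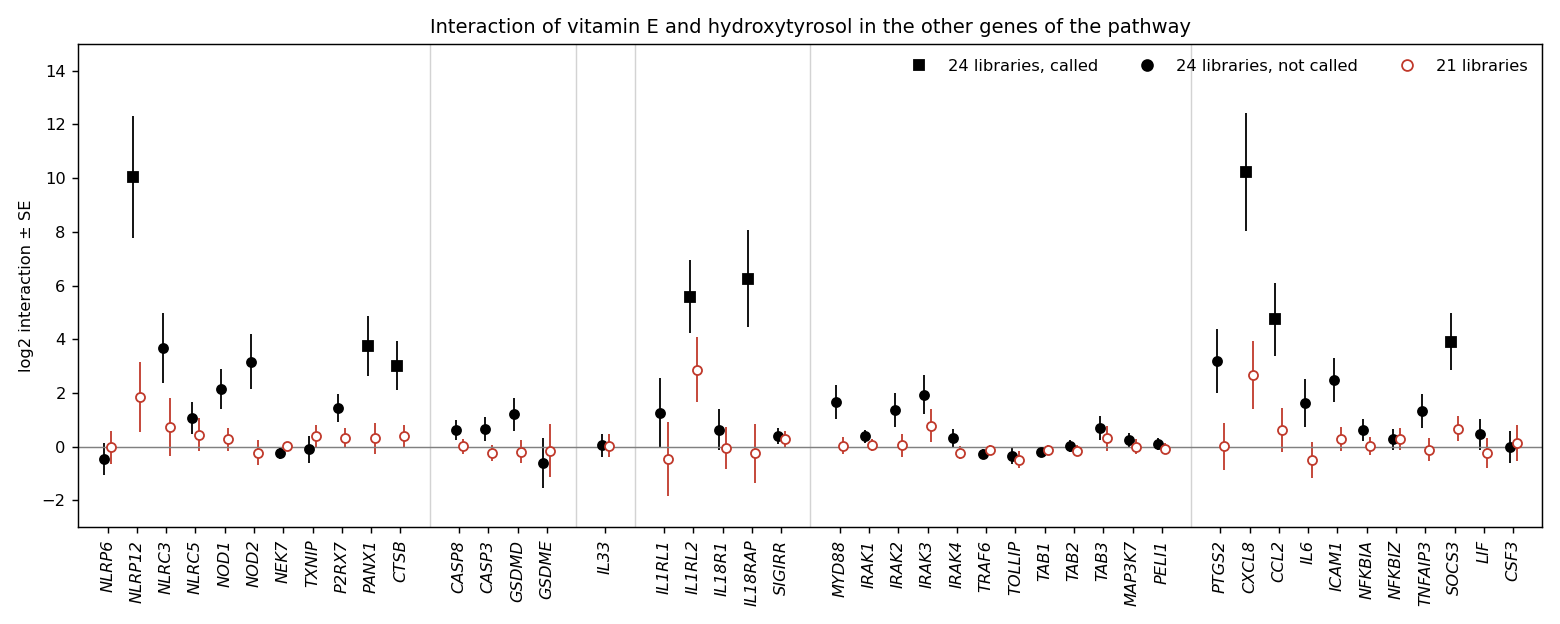
Log2 interaction of vitamin E and hydroxytyrosol (edgeR estimate ± SE) in the other matched and tested genes, grouped from left to right as sensors and partners, effectors, IL33, receptors, receptor signalling and genes responsive to interleukin 1. Squares are called genes over 24 libraries and open red circles are the values over 21 libraries, where CXCL8 had 2.68 against 10.23 over 24 and NLRP12 had 1.85 against 10.05.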

How the data were processed

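Per the labels and the study's methods, the authors trimmed reads with Trim Galore, mapped them to Sscrofa11.1 with HISAT2 and made raw counts per Ensembl gene with HTSeq; versions, annotation release and strand setting are not given in the sources used here. The deposited counts were whole numbers, and entries for reads with no feature (8.31% to 16.5% per library) were left out. Groups came from the diet in each column name. Symbols came from a table of Ensembl identifiers and gene names and named 14857 genes.

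Tests used R 4.3.3, edgeR 4.0.16 (TMM, quasi-likelihood F test), with DESeq2 1.42.0 and limma 3.58.1 as alternatives; a gene at 0 in at least 75% of the libraries compared was left out. Pairs were fitted on their 12 libraries and the factorial model on 24. A call needed a Benjamini-Hochberg adjusted p of at most 0.10 over all genes and a 1.5-fold change; the interaction took the adjusted p alone. SE is the log2 fold change over the root of F. CPM are scaled by TMM, and log2 CPM carry a prior count of 0.5. Per the study's methods each piglet came from its own litter. The fits were tested on simulated data. Figures used Python 3.11.15. Named genes were all members, up to 4 genes of each list with an unadjusted p under 0.05, those at 0 and the 3 most alike genes. Members and lists were chosen with earlier results of these data known. The IL1R1 over IL1RAP ratio was added after values were seen. So were list genes that missed that p in the interaction (NEK7, IL33, IL18R1, SIGIRR, TRAF6, TAB1, TAB2, IL6, NFKBIA). Of these, SIGIRR and IL6 were under it in VE vs C.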

Additional observations from a re-analysis of the deposited data

Results flagged for a closer look

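IL18 in the VEHT library G141 (31.7 CPM) lay far from the other 5 VEHT libraries (1.09 to 2.92 CPM), the gap being 0.710 of the range on the log2 scale. Of 32 groups examined, 1 was flagged, and chance flags about 1 in 20. The rule looks for a single extreme library and can miss C, where G041 and G047 were both high. The groups also share the same libraries, so the count flagged does not show how common outlying libraries are. Over all 24 libraries, the edgeR interaction term was past the threshold for NLRP3 (interaction 5.13), CASP1 (5.39), PYCARD (3.72), IL1A (6.18), IL18 (4.53) and IL1R2 (4.65). Without VEHT G141, C G041 and C G047 the values were 0.44 for NLRP3, 0.21 for CASP1, 0.80 for PYCARD, 1.72 for IL1A, -0.21 for IL18 and 1.34 for IL1R2, none with an unadjusted p under 0.05, and limma voom called none over all 24. The macrophage marker sums of VEHT G141, C G041 and C G047 (11561.5 to 15166.6 CPM) moved with these results, and their part was not tested.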

How the results depend on the processing

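No paired analysis was possible because the columns carry the animal number and not the replicate number of the labels. The study's methods also describe no pairing of piglets between diets. Each piglet came from its own litter, and the sows were allotted to separate diet groups. Nothing in the sources used here shows that equal replicate numbers mark pairs. With RLE factors, no filter, or all 24 libraries in 1 fit, every member kept its direction and its side of the threshold, and with filterByExpr all but IL18 in the interaction (4.57, no longer called). DESeq2 called 3 members in VE vs C, 5 in HT vs C, 1 in VEHT vs VE and 1 in VEHT vs HT where edgeR called 0. The 6 interaction calls became 0 at an adjusted p of at most 0.05, 0 with limma voom and 0 without C G041, C G047 and VEHT G141, and 0 to 6 when each library was left out. They numbered 1 without HT G008 or HT G121, 2 without VE G091 and 3 without VE G085, VE G127 or HT G189. The cause was not tested.

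Log2 values that changed sign without C G041, C G047 and VEHT G141 were, in VE vs C NLRP3 0.62, CASP1 0.41, PYCARD 0.38, IL18 0.52, IL1R1 -0.072, IL1RAP 0.030, and in HT vs C CASP1 0.91, IL18 0.11, IL1R1 -0.037, IL1RAP 0.71, and in VEHT vs C NLRP3 1.05, CASP1 1.51, PYCARD 0.65, IL1A 0.78, IL18 0.40, IL1R1 -0.018, IL1RAP 0.031, and in VEHT vs VE IL18 -0.089, and in the vitamin E main effect NLRP3 0.84, CASP1 0.51, PYCARD 0.78, IL1A 0.27, IL18 0.42, IL1R1 -0.021, and in the hydroxytyrosol main effect NLRP3 0.23, CASP1 1.02, IL1A 0.54, IL18 0.015, IL1R2 0.059, and in the interaction IL18 -0.21, IL1R1 0.10, IL1RAP -0.69. With limma voom and quality weights those that changed sign were, in VE vs C NLRP3 0.092, CASP1 0.22, PYCARD 0.010, IL1R1 -0.091, and in HT vs C CASP1 0.55, IL1R1 -0.034, IL1RAP 0.43, and in VEHT vs C NLRP3 0.65, CASP1 1.25, PYCARD 0.14, IL18 0.18, IL1R1 -0.024, IL1R2 -0.43, and in VE vs HT IL1A 0.25, and in the vitamin E main effect NLRP3 0.61, CASP1 0.48, PYCARD 0.50, IL18 0.24, IL1R1 -0.034, and in the hydroxytyrosol main effect NLRP3 0.14, CASP1 0.90, IL18 0.050, and in the interaction IL1R1 0.098, IL1RAP -0.30. Leaving out 1 library at a time turned the sign of these values, whose ranges were, in the hydroxytyrosol main effect CASP1 -0.81 to 0.41, IL1R2 -0.92 to 0.081, IL1RAP -0.10 to 0.38, and in VEHT vs C CASP1 -2.11 to 0.35, IL18 -2.58 to 0.022, IL1R1 -0.036 to 0.17, IL1R2 -1.31 to 0.69, IL1RAP -0.87 to 0.069, NLRP3 -2.28 to 0.061, PYCARD -1.58 to 0.058, and in VE vs HT IL18 -0.11 to 0.55, IL1A -0.51 to 0.49, IL1R1 -0.11 to 0.013, and in VEHT vs VE IL18 -0.089 to 2.21, IL1R1 -0.085 to 0.12, and in the vitamin E main effect IL18 -1.09 to 0.20, IL1R1 -0.037 to 0.061, IL1R2 -0.40 to 0.60, NLRP3 -0.83 to 0.33, PYCARD -0.35 to 0.47, and in the interaction IL1R1 -0.18 to 0.030, IL1RAP -0.17 to 0.79, and in VE vs C IL1R1 -0.017 to 0.12, and in VEHT vs HT IL1R1 -0.13 to 0.071, and in HT vs C IL1RAP -0.52 to 0.45.

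IL1A had as few as 0.0665 CPM, which limits its fold changes. With 6 piglets a diet, and 3 libraries that stand apart lying only in VEHT and C, diet and immune content cannot be told apart.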

Other observations

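CSF3, the growth factor of neutrophils and a gene of the interleukin 1 responsive list, did not follow the 3 libraries. Its lowest, median and highest level was 1.63, 3.45 and 6.87 CPM in VEHT, 0.839, 1.44 and 2.80 CPM in VE, 0.942, 2.12 and 5.46 CPM in HT and 0.706, 1.07 and 2.12 CPM in C. The groups overlapped, and both diets with hydroxytyrosol had the higher medians. The hydroxytyrosol main effect was 1.23 ± 0.31 on the log2 scale (edgeR, unadjusted p = 0.000727, adjusted p = 0.787), which DESeq2 called (adjusted p = 0.0929, with 0.0227% of all genes called higher) and edgeR and limma voom did not. Without VEHT G141, C G041 and C G047 it was 1.31 ± 0.34 (edgeR, unadjusted p = 0.00113, adjusted p = 0.574). CSF3 was singled out after its values were seen.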
